A study of Mus musculus with 12 samples.

Results

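The replication-dependent histone genes encode the H1, H2A, H2B, H3 and H4 proteins that package newly made DNA. They were chosen as the protein-coding genes of the GENCODE M21 annotation whose symbols begin with Hist1h, Hist2h, Hist3h or Hist4h. The rule used names only and no measured value, though it was set with earlier results of these data known. It gave 67 genes of the 52636 in the count files, of which 6 encode H1, 18 H2A, 18 H2B, 12 H3 and 13 H4. On the mouse genome GRCm38, 54 lay in the Hist1 cluster on chromosome 13, 10 in Hist2 on chromosome 3, 2 in Hist3 on chromosome 11 and 1, Hist4h4, stood alone on chromosome 6.

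Their mRNAs were measured by RNA-seq in the livers of male C57Bl/6J offspring at 16 weeks of age. The mothers of the VDD-F1 offspring ate a diet without vitamin D, with added calcium gluconate, from before mating until delivery, and the mothers of the VDS-F1 offspring ate a vitamin D sufficient diet. All mothers received the sufficient diet after delivery, and all offspring after weaning, so that the diets differed until delivery. The offspring of mothers without vitamin D may also have lacked it early after birth, since levels take time to recover, and the prenatal and early postnatal periods cannot be told apart. Each group had 6 mice with 1 library per mouse, taken from the left lateral lobe, and p-values measure the spread between these 12 mice. Whether littermates are among them is not given in the sources used here.

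Most mRNAs end in a poly(A) tail. Replication-dependent histone mRNAs instead end shortly after a conserved stem-loop that is bound by the stem-loop binding protein, encoded by Slbp, and they are made in bulk during S phase, when DNA is copied. Adult liver divides little, and some histone genes also make longer, polyadenylated transcripts in cells that do not divide. The libraries were made from RNA from which only ribosomal RNA had been removed, so transcripts without a poly(A) tail were kept.

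A stem-loop, searched as GG, 2 bases of any kind, CTTTT, 1 base, AG, 2 bases and CC, was found in the annotated 3′ untranslated region of 43 of the 67 genes. A further 13 genes had no annotated 3′ untranslated region, so none could be looked for, and 11 had one without these letters, among them Hist1h2bc. In Hist1h2af and Hist1h2ah, also among these 11, this region was 1 and 2 bases long, too short to hold a stem-loop. Only the longest coding transcript of each gene was searched. The most frequent form, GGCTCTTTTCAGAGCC, was in 25 genes, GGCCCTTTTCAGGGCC in 7, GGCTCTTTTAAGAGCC in 6, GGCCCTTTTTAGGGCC and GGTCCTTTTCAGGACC in 2 each and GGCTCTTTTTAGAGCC in 1. The stem-loops printed here, from the GENCODE M21 transcripts, are those of 3 genes with a log2-fold change above 1 between the groups (Hist1h3c, Hist1h4j, Hist1h4n) and of 4 abundant genes, with the stem-loop in capitals and 5 bases on each side.
Hist1h1c: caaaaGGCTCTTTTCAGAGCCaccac
Hist1h3c: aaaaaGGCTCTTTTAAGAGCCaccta
Hist1h4j: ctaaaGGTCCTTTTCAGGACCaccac
Hist1h4n: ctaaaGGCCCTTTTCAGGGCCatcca
Hist1h4h: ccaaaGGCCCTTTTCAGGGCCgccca
Hist1h4d: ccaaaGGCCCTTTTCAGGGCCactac
Hist2h2ac: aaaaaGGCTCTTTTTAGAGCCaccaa
The 16 bases in capitals are the same in Hist1h4n, whose log2-fold change between the groups was 1.26, and in Hist1h4h and Hist1h4d, where it was 0.15 and -0.11.

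Promoters (300 bases that end just after the start of the gene, from RefSeq, GRCm38.p6) were found for 62 of the 67 genes and searched on both strands. CCAAT was present in every H1, H2A, H2B and H3 promoter found and in 3 of 12 H4 promoters, against 37.4% of all 32851 promoters of this length. TATAAA was in 66.7% of H1, 61.1% of H2A, 47.1% of H2B, 40% of H3 and 66.7% of H4 promoters, against 13.6% of all. ATTTGCAT, the octamer that Oct1 binds, was in 7 of 18 H2A and 7 of 17 H2B promoters (of 16 genes) and in 0 of the H1, H3 and H4 promoters, against 1.74% of all. AAACACA, known from H1 promoters, was in 5 of 6 H1, 2 of 18 H2A and 2 of 17 H2B promoters. It was in 0 of the H3 and H4 promoters and in 7.18% of all promoters. A match is a description of the letters only. The 4 promoters are those of a gene with a log2-fold change above 1 and of an abundant gene with one near 0, for H4 (Hist1h4k, Hist1h4d) and for H1 (Hist1h1b, Hist1h1c), with the matches to these 4 motifs in capitals.
Hist1h4k, chr13:21750504-21750803, minus strand: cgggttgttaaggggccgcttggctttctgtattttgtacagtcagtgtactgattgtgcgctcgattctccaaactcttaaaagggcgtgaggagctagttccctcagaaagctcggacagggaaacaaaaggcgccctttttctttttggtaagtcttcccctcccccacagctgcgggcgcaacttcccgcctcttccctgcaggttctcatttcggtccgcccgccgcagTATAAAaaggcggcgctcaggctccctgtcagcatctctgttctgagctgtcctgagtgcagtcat
Hist1h4d, chr13:23581318-23581617, plus strand: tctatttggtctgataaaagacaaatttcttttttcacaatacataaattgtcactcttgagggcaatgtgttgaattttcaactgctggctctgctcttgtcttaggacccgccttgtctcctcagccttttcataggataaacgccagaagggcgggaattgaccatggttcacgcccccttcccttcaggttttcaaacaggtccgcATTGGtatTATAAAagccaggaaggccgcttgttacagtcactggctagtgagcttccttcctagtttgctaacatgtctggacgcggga
Hist1h1b, chr13:21780576-21780875, minus strand: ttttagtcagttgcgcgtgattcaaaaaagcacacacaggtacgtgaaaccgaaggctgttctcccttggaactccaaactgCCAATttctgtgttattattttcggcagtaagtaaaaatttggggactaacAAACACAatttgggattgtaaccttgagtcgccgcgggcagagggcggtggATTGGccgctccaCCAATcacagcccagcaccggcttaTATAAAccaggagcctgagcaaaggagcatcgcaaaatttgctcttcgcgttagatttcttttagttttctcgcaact
Hist1h1c, chr13:23738557-23738856, plus strand: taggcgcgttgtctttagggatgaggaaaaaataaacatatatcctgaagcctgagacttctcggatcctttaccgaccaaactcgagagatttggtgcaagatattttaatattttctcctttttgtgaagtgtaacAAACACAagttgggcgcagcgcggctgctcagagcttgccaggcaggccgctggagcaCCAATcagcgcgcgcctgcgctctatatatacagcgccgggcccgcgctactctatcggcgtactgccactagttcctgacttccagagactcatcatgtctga
Both H4 promoters hold TATAAA, and Hist1h4d also holds CCAAT, which appears as ATTGG on the strand shown. Both H1 promoters hold CCAAT and AAACACA, and Hist1h1b also holds TATAAA.

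Between 14275793 and 20815066 fragments per library were counted on genes on the reverse strand, the strand that held most counts. Histone genes held between 0.0466% and 0.105% of these counts. A count was present in every library for 50 histone genes, in some libraries for 15 and in none for Hist2h3c1 and Hist1h2aa, the latter a testis histone. In 17 genes the mean count over the 12 libraries was below 12, the minimum for testing, and the summed level of these genes was 1.37 to 8.19 CPM (counts scaled to the library size after TMM normalization) per mouse. The other 50 genes were tested. Of these, 42 had a mean count of at least 12 in both groups, 7 reached the minimum only through the VDD-F1 mice and 1, Hist2h3c2, only through the VDS-F1 mice. VDD2 stood apart from the other mice in most histone genes, and values without it are given beside many of those that rest on it. Only fragments that map to 1 place were counted. Many histone genes are near-copies of each other, so their levels are lower limits and the assignment between close copies is uncertain. The share of 100-base windows of a transcript that no annotated gene elsewhere in the genome holds had a median of 99.6% in H1, 81.0% in H4, 66.3% in H2B, 60.0% in H3 and 35.5% in H2A genes.

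Histone mRNA in these livers came mostly from a few genes. Hist1h4d, Hist1h2bc, Hist1h4h, Hist1h1c, Hist1h1e and Hist1h4c held between 52.7% and 77.0% of all histone CPM in each mouse, and Hist1h4d alone 14.6% of all histone counts. Per kilobase of exon, the mean level over the 12 mice was 168 CPM in Hist1h4h, 82.9 in Hist1h4d, 68.6 in Hist1h2bc, 64.4 in Hist1h4c, 43.9 in Hist1h1c and 31.3 in Hist1h1e. Next in this order were Hist1h3e with 29.8, Hist1h4b with 29.7, Hist1h4k with 21.3 and Hist2h2ac with 17.7 CPM per kilobase. The 4 leading genes, of the H4 and H2B classes, each had an annotated transcript that either ran past the stem-loop (Hist1h4d, Hist1h4c), lacked one in its 3′ untranslated region (Hist1h2bc) or ended within 100 bases of it (Hist1h4h).

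The summed CPM of all 67 genes was 501 in VDD1, 923 in VDD2, 791 in VDD3, 724 in VDD4, 547 in VDD5 and 630 in VDD6, and 758 in VDS1, 520 in VDS2, 602 in VDS3, 615 in VDS4, 472 in VDS5 and 593 in VDS6. The groups overlapped, with VDS1 above 4 of the VDD-F1 mice. The means were 686 ± 158 and 593 ± 97.5 CPM (SD, n = 6), a difference of 0.21 on the log2 scale, or 0.11 without VDD2. In bulk liver, a lower sum from fewer cells that express these genes and one from less RNA per cell cannot be told apart. H4 mRNA held 43.9% ± 4.71 of the sum in VDD-F1 mice and 45.5% ± 2.25 in VDS-F1 (SD, n = 6), H1 24.2% ± 2.84 and 23.4% ± 2.92, H2B 16.5% ± 3.01 and 17.6% ± 2.24, H3 10.7% ± 1.83 and 9.55% ± 1.32, and H2A 4.69% ± 1.11 and 3.90% ± 0.472. Each class difference was smaller than the SD of the VDD-F1 mice.

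**Figure D1:**
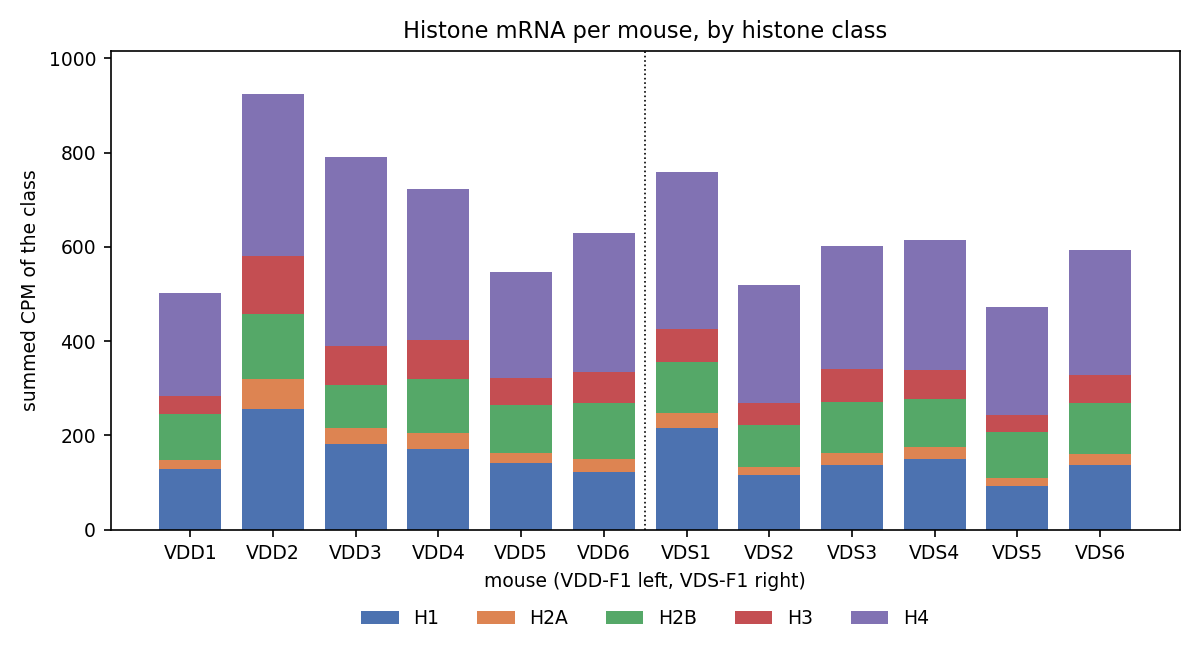
Summed CPM of the histone genes in each mouse (vertical axis), stacked by histone class, with the 6 VDD-F1 mice left of the dotted line and the 6 VDS-F1 mice right of it. The bars overlap between the groups: VDD2 has the tallest bar at 923 CPM, VDS1 reaches 758 and VDD1 has 501.

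The comparison of VDD-F1 with VDS-F1 mice asks whether maternal vitamin D deficiency left a lasting difference in liver gene expression. A gene was called at an adjusted p-value under 0.05 with a log2-fold change above 1 or below -1. In the quasi-likelihood test of edgeR, adjusted after Benjamini and Hochberg, 0 of 50 histone genes were called, where 0.0402% of all 12453 genes tested were. At an unadjusted p-value under 0.05, 16 histone genes were higher in VDD-F1 mice, 32% of those tested against 9.55% of all genes, and 1 was lower, Hist2h3c2, against 6.29% of all genes. The smallest adjusted p-value was 0.0812, in Hist1h4k. The Wald test of DESeq2, run on these 12453 genes, called 8 histone genes, all higher in VDD-F1 mice, against 2.03% of all genes: Hist1h1b, Hist1h2bn, Hist1h3c, Hist1h3i, Hist1h3g, Hist1h4k, Hist1h4n and Hist1h4j. No H2A gene was among them.

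The log2-fold change was above 0 in 47 of 50 histone genes, against 50.8% of all genes, and its median was 0.63, against 0.0041 over all genes. Over the 42 genes that reached the minimum count in both groups it was above 0 in 40, with a median of 0.55 (0.24 without VDD2), and 13 were higher at an unadjusted p-value under 0.05 and 0 lower. The share over all genes that reached the minimum in both groups was not computed, and over all genes tested 9.55% were higher. The values of the histone genes moved with single mice. Without VDD2, 12 of 49 genes were higher at an unadjusted p-value under 0.05, against 7.24% of all genes, and the median over the genes tested in both fits was 0.31. Without VDD1, 24 of 51 were higher, against 11% of all genes. Of these, 2 of the 12 and 4 of the 24 reached the minimum count only through the VDD-F1 mice. With any mouse other than VDD2 left out the median lay between 0.57 and 0.73. Genes with many counts differed little. Of the 10 genes with a mean CPM of 10 or more, 1, Hist1h1d, was higher at an unadjusted p-value under 0.05, but not without VDD2 (edgeR unadjusted p = 0.088). The median log2-fold change of the 10 was 0.12 (0.074 without VDD2). Of the 40 with a lower mean CPM, 15 were higher and the median was 0.71, or 0.37 without VDD2. These 40 include the 7 genes that reached the minimum count only through the VDD-F1 mice. The same shares over all genes tested were 6.24% and 14.2%, with medians of -0.031 and 0.10. In these level groups 42.3% and 62.8% of all genes were above 0, against 8 of the 10 and 39 of the 40 histone genes.

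**Figure D2:**
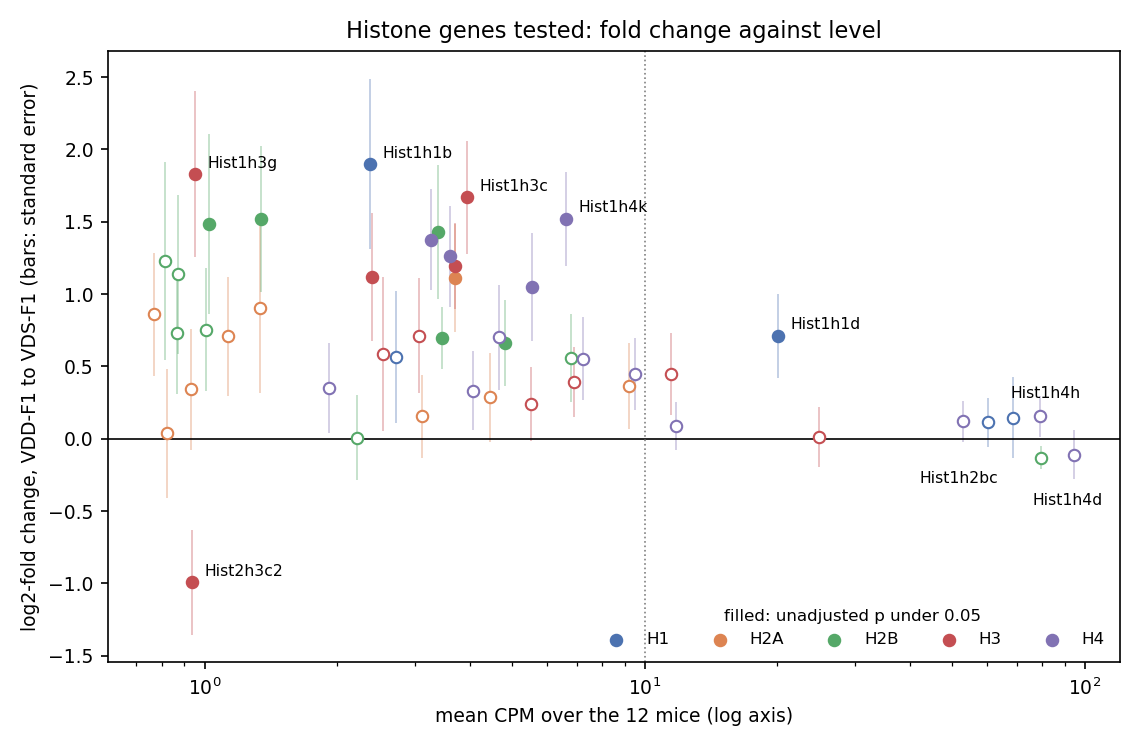
Log2-fold change of VDD-F1 to VDS-F1 (vertical axis, bars are the standard error) against the mean CPM over the 12 mice (log axis) for the 50 histone genes tested, coloured by class. Filled points have an unadjusted p-value under 0.05; they lie left of the dotted line at 10 CPM except for Hist1h1d, while Hist1h4d, Hist1h4h and Hist1h2bc lie near 0.

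H1 binds the linker DNA between nucleosomes. Hist1h1c (ENSMUSG00000036181.2, chromosome 13, 23738808 to 23740367, plus strand) had 50.2 CPM in the lowest, 66.1 in the median and 123 in the highest VDD-F1 mouse, and 38.4, 55.9 and 133 in VDS-F1 mice. The means were 72 ± 26.1 and 65.0 ± 34.0 CPM (SD, n = 6), and the log2-fold change was 0.15 (SE 0.28, edgeR adjusted p = 0.849), and -0.074 without VDD2. The ranges overlapped in full, and 1 mouse in each group, VDD2 and VDS1, had a level far above the rest. Hist1h1e, next to it in level per kilobase, had 47.0, 61.5 and 85.9 CPM in VDD-F1 mice and 43.3, 59.3 and 74.6 in VDS-F1, and the log2-fold change was 0.11 (SE 0.17, edgeR adjusted p = 0.788), and 0.066 without VDD2. Exons of Hist1h2be overlap Hist1h1e on the same strand, so that its counts are uncertain. Hist1h1b, the H1 gene with the largest difference, had 0.631, 3.19 and 9.76 CPM in VDD-F1 mice and 0.139, 0.762 and 2.55 in VDS-F1. Its log2-fold change was 1.90 (SE 0.59, edgeR adjusted p = 0.140, DESeq2 adjusted p = 0.0277), and 1.35 without VDD2. The groups overlapped: VDD1, at 0.631 CPM, lay below 4 of the VDS-F1 mice, and VDD3, at 2.41 CPM, below VDS4. Hist1h1d had 24.9 ± 10.5 and 15.2 ± 5.66 CPM (SD, n = 6), and the log2-fold change was 0.71 (SE 0.29, edgeR adjusted p = 0.252), and 0.49 without VDD2. Its annotated exons span 7425 bases, most of them past the stem-loop, so its 2.70 CPM per kilobase understates a short transcript. Hist1h1a, with a log2-fold change of 0.57, or 0.12 without VDD2, had 7.57 CPM in VDD2 and 2.75 in the median VDD-F1 mouse. Hist1h1t, the testis H1, had 6 counts in the whole series.

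H2A and H2B pair as dimers at the outside of the nucleosome. Of 9 H2A genes tested, all had a log2-fold change above 0, with a median of 0.37, or 0.080 without VDD2. Without that mouse Hist1h2ai, Hist2h2ab and Hist1h2ab were below 0, at -0.41, -0.070 and -0.016, and Hist1h2ad was not tested. At an unadjusted p-value under 0.05, 1 of the 9 was higher, against 9.55% of all genes. This gene, Hist1h2ak (ENSMUSG00000063021.3, chromosome 13, 21753435 to 21753827, minus strand), had 2.40, 4.11 and 10.4 CPM in the lowest, median and highest VDD-F1 mouse and 1.25, 1.95 and 3.99 in VDS-F1 mice. Its log2-fold change was 1.11 (SE 0.37, edgeR adjusted p = 0.172), and 0.77 without VDD2. Hist2h2ac, which had the highest level per kilobase of the H2A genes and of the Hist2 cluster, had 5.52, 9.44 and 17.4 CPM in VDD-F1 mice and 5.72, 7.66 and 11.9 in VDS-F1, and the log2-fold change was 0.37 (SE 0.30, edgeR adjusted p = 0.581), and 0.15 without VDD2. VDD2 and VDD3 lay above every VDS-F1 mouse, and the other 4 VDD-F1 mice lay between 5.52 and 11.3 CPM. Hist1h2ab had a log2-fold change of 0.29, which was -0.02 without VDD2. Hist3h2a, the most abundant gene of the Hist3 cluster, was not tested and had 0.774 ± 0.372 and 0.464 ± 0.208 CPM (SD, n = 6). Each of the 9 tested H2A genes overlaps an annotated gene on the opposite strand, and fragments that overlap more than 1 gene are not counted. The count that ignores the strand was 3.14% of the reverse-strand count in Hist2h2ab and 36.1% in Hist1h2ae, the lowest and highest of the 9. It was 0 in Hist2h3b, an H3 gene, and 1.83% in Hist1h4b, an H4 gene, which also overlap a gene on the opposite strand, so the values of these genes rest on the strand assignment.

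Of 12 H2B genes tested, 11 had a log2-fold change above 0, with a median of 0.74, or 0.52 without VDD2. At an unadjusted p-value under 0.05, 5 were higher, against 9.55% of all genes. However, 5 of the 12 reached the minimum count only through the VDD-F1 mice (Hist1h2bl, Hist1h2bh, Hist1h2bj, Hist1h2bk and Hist1h2bf), and 2 of these, Hist1h2bl and Hist1h2bh, are among the 5 higher genes. Hist1h2bc (ENSMUSG00000018102.5, chromosome 13, 23684199 to 23692908, plus strand), an abundant H2B gene without a stem-loop in its annotated 3′ untranslated region, varied little between mice. It had 66.8, 74.6 and 89.1 CPM in the lowest, median and highest VDD-F1 mouse and 76.3, 84.5 and 85.8 in VDS-F1 mice, and the log2-fold change was -0.13 (SE 0.08, edgeR adjusted p = 0.433). VDD2 had its lowest value. Hist1h2be had 3.16, 4.11 and 6.68 CPM in VDD-F1 mice and 1.81, 2.78 and 3.12 in VDS-F1, and the groups did not overlap. Its log2-fold change was 0.70 (SE 0.21, edgeR adjusted p = 0.135). Its annotated exons overlap those of Hist1h1e on the same strand, so that the counts of both genes are uncertain. Hist1h2bn had 1.73, 3.83 and 13.6 CPM in VDD-F1 mice and 0.694, 2.14 and 2.50 in VDS-F1, with a log2-fold change of 1.43 (SE 0.47, edgeR adjusted p = 0.161, DESeq2 adjusted p = 0.0439). Without VDD2 it was 0.81. Hist1h2bl had 5.58 CPM in VDD2 and at most 1.51 in the other VDD-F1 mice, against 0.148 to 1.0 in VDS-F1 mice, with a log2-fold change of 1.52 that was 0.87 without VDD2, and it is one of the genes that passed the count filter only through the VDD-F1 mice. Hist1h2bb and Hist1h2bg, at 11.1 and 16.2 CPM in VDD2, had log2-fold changes of 0.66 and 0.56, which were 0.38 and 0.23 without VDD2.

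H3 and H4 form the tetramer at the core of the nucleosome. Of 11 H3 genes tested, 10 had a log2-fold change above 0, with a median of 0.59 (0.28 without VDD2), 4 were higher and 1 lower at an unadjusted p-value under 0.05. Hist1h3c (ENSMUSG00000069310.4, chromosome 13, 23744973 to 23745602, minus strand) had 2.15, 4.89 and 14.1 CPM in the lowest, median and highest VDD-F1 mouse and 0.987, 1.91 and 2.79 in VDS-F1 mice. The means were 6.00 ± 4.12 and 1.90 ± 0.676 CPM (SD, n = 6), and the log2-fold change was 1.67 (SE 0.39, edgeR adjusted p = 0.0855, DESeq2 adjusted p = 0.00274). VDD1 lay within the VDS-F1 range, the other 5 VDD-F1 mice above it, and the log2-fold change was 1.21 without VDD2. Hist1h3i had 2.40, 4.77 and 8.46 CPM in VDD-F1 mice and 1.25, 2.23 and 3.16 in VDS-F1, and the log2-fold change was 1.19 (SE 0.30, edgeR adjusted p = 0.0958, DESeq2 adjusted p = 0.00860), and 0.996 without VDD2. Hist1h3g had a log2-fold change of 1.83 (SE 0.57, edgeR adjusted p = 0.144, DESeq2 adjusted p = 0.0460) at a low level of 1.5 ± 1.16 and 0.408 ± 0.283 CPM (SD, n = 6), and it passed the count filter only through the VDD-F1 mice. Hist1h3e, the H3 gene with the highest level per kilobase, had 15.5, 25.1 and 32.6 CPM in VDD-F1 mice and 15.4, 26.1 and 34.6 in VDS-F1. Its log2-fold change was 0.01 (SE 0.21, edgeR adjusted p = 0.986), and -0.078 without VDD2. Hist2h3b and Hist1h3a had log2-fold changes of 0.39 and 0.24, which were 0.19 and 0.049 without VDD2. In Hist2h3b, 22.9% of 100-base windows are found in no gene elsewhere. Hist2h3c2, the 1 lower gene and named here because of its direction, had 0.313, 0.624 and 1.03 CPM in VDD-F1 mice and 0.764, 1.05 and 2.22 in VDS-F1, and the log2-fold change was -0.99 (SE 0.36, edgeR adjusted p = 0.206), and VDD2 had its lowest value.

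Of 13 H4 genes tested, 12 had a log2-fold change above 0, with a median of 0.45 (0.24 without VDD2). At an unadjusted p-value under 0.05, 4 were higher, against 9.55% of all genes. Hist1h4k (ENSMUSG00000064288.4, chromosome 13, 21750194 to 21750505, minus strand) had 4.92, 7.39 and 19.5 CPM in the lowest, median and highest VDD-F1 mouse and 1.87, 3.51 and 4.27 in VDS-F1 mice. Every VDD-F1 mouse was above every VDS-F1 mouse, as in Hist1h2be and in no other histone gene tested, where the VDD-F1 mice were all above in 0.61% of all genes. The means were 9.84 ± 5.66 and 3.42 ± 0.860 CPM (SD, n = 6), and the log2-fold change was 1.52 (SE 0.32, edgeR adjusted p = 0.0812, DESeq2 adjusted p = 0.000903), and 1.20 without VDD2. Hist1h4j had 2.08, 4.67 and 7.99 CPM in VDD-F1 mice and 0.859, 1.95 and 3.07 in VDS-F1, and the log2-fold change was 1.38 (SE 0.35, edgeR adjusted p = 0.0969, DESeq2 adjusted p = 0.00839). Hist1h4n had 2.27, 5.2 and 9.39 CPM in VDD-F1 mice and 1.5, 1.83 and 3.85 in VDS-F1, and the log2-fold change was 1.26 (SE 0.35, edgeR adjusted p = 0.112, DESeq2 adjusted p = 0.0188), and 0.995 without VDD2. In these 2 genes the groups overlapped. Hist1h4n shares its coding sequence with another H4 gene, and 19.3% of its 100-base windows are found in no gene elsewhere. In the 3 most abundant H4 genes the ranges of the groups overlapped. Hist1h4d had 62.4, 87.8 and 139 CPM in VDD-F1 mice and 78.5, 95.9 and 126 in VDS-F1, and the log2-fold change was -0.11 (SE 0.17, edgeR adjusted p = 0.798). Hist1h4h had 59.1, 83.7 and 119 CPM in VDD-F1 mice and 62.0, 75.0 and 84.4 in VDS-F1, and the log2-fold change was 0.15 (SE 0.14, edgeR adjusted p = 0.642). Hist1h4c had a log2-fold change of 0.12 (SE 0.14, edgeR adjusted p = 0.726). For these genes VDD3, not VDD2, had the highest value. Hist4h4, the gene on chromosome 6, had 4.55 ± 1.89 and 3.61 ± 0.955 CPM (SD, n = 6), and the log2-fold change was 0.33 (SE 0.27, edgeR adjusted p = 0.587), and 0.14 without VDD2.

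Mouse by mouse, the higher histone levels were uneven among the VDD-F1 mice. VDD2 exceeded every VDS-F1 mouse in 40 of the 50 genes tested, where it did so in 25.2% of all genes. VDD4 did in 28 (18.7% of all genes), VDD6 in 19 (20.6%), VDD3 in 17 (18.4%), VDD5 in 14 (19.6%) and VDD1 in 3 (14.9%). VDD1 lay below every VDS-F1 mouse in 10 genes (14.4% of all genes), and VDS5 below every VDD-F1 mouse in 31 (15.3%). VDD2 had the highest value of the 12 mice in 39 of the 50 genes. Of the 10 genes with a mean CPM of 10 or more, VDD2 exceeded every VDS-F1 mouse in 2, and of the 40 others in 38. The summed CPM of these 40 genes was 320 in VDD2, 181 in VDD4, 144 in VDD6, 136 in VDD3, 126 in VDD5 and 92.4 in VDD1, and between 69.2 and 123 in the VDS-F1 mice. VDD2, VDD4, VDD6, VDD3 and, narrowly, VDD5 were above the highest VDS-F1 mouse, VDS1, on this sum. VDD5 was close to VDS1, and over the 32 of these genes that reached the minimum count in both groups each had 118 CPM. VDD1 was within the VDS-F1 range.

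**Figure D3:**
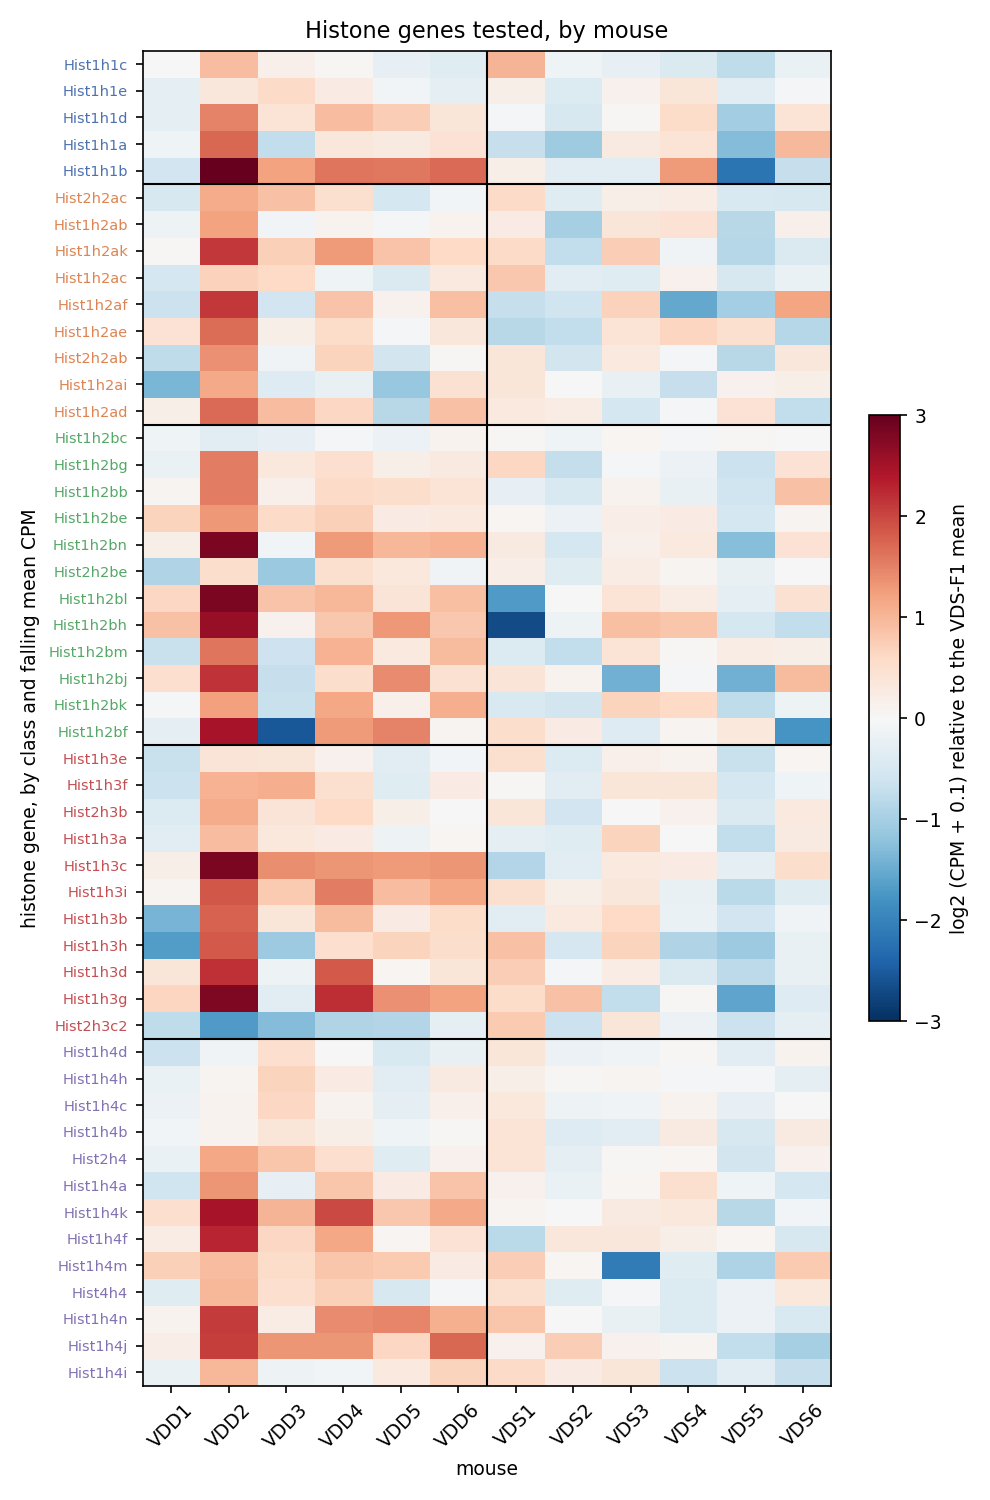
Level of each histone gene tested (rows, by class and falling mean CPM) in each mouse (columns), as log2 of CPM + 0.1 relative to the VDS-F1 mean. The column of VDD2 is the reddest, with 40 of 50 genes above every VDS-F1 mouse, and the rows of Hist1h2bc and Hist1h4d are pale.

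**Figure D4:**
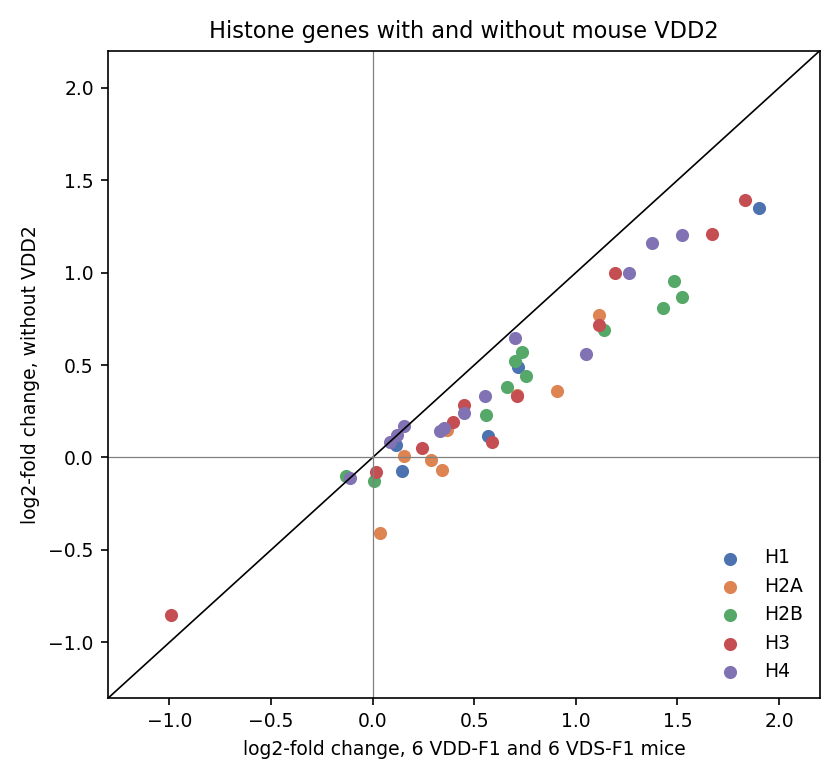
Log2-fold change of VDD-F1 to VDS-F1 for each histone gene, with all 12 mice (horizontal axis) and without VDD2 (vertical axis), coloured by class. Most points lie below the diagonal line of equal values, and the median is 0.31 without VDD2.

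A picture of the livers in the study's supplement gives a liver weight for 7 of the mice (VDD4, VDD5, VDD6, VDS3, VDS4, VDS5 and VDS6) and none for the other 5. These sets were read from that picture and are not a batch named in the labels. Within the 7 mice, 6 of 49 histone genes were called by edgeR, against 4.33% of all genes, with log2-fold changes of 1.12 in Hist1h3c, 1.46 in Hist1h3i, 2.52 in Hist1h3g, 1.42 in Hist1h4k, 1.70 in Hist1h4n and 1.63 in Hist1h4j. All were higher in VDD-F1 mice, and neither VDD1 nor VDD2 is in this set. Hist1h3g passed the count filter in this set only through the VDD-F1 mice. The median log2-fold change was 0.41 in the 7 mice and 0.76 in the other 5, over the same 50 genes where tested. In those 5 mice, 5 of 53 histone genes were higher at an unadjusted p-value under 0.05, against 2.05% of all genes, and 2 of the 5 reached the minimum count only through the VDD-F1 mice. Without VDD1, 6 of 51 histone genes were called, against 2.09% of all genes: Hist1h1b, Hist1h3c, Hist1h3i, Hist1h4k, Hist1h4n and Hist1h4j. The difference of the diet effect between the sets, tested as an interaction by edgeR, had an adjusted p-value under 0.05 in 0 of 50 histone genes, and an unadjusted one in 1, against 9.01% of all genes.

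The annotated end of the transcript divided the genes in a way the choice did not use. In 16 genes tested, the transcript ended within 100 bases of the stem-loop, and the median log2-fold change was 0.72, or 0.41 without VDD2, with 4 higher at an unadjusted p-value under 0.05. In 18 it ran further, past the stem-loop, with a median of 0.40, or 0.19 without VDD2, and 5 higher and 1 lower. The counts of higher genes are with all mice, and Hist1h1d, among these 5, had an unadjusted p-value of 0.088 without VDD2 (edgeR). In 7 with a 3′ untranslated region but no stem-loop found in it the median was 0.55, or 0.19 without VDD2, with 1 higher. This region was 1 base long in Hist1h2af, 37 in Hist2h3b and 48 in Hist1h1a, so that a stem-loop past its end would be missed. In 9 without an annotated 3′ untranslated region the median was 1.19, or 0.81 without VDD2, with 6 higher. Genes that reached the minimum count only through the VDD-F1 mice were 4 of the 16, 1 of the 18 (Hist1h2bh, among its 5 higher), 1 of the 7 (Hist1h3g, its 1 higher gene) and 1 of the 9 (Hist1h2bl, among its 6 higher). The limit of 100 bases was set after the lengths had been seen. The median level was 4.20 CPM in the genes that end near the stem-loop and 5.44 CPM in those that run further. It was 2.72 CPM in the 7 with no stem-loop found and 2.54 CPM in the 9 with no annotated region. Over all genes tested, 9.55% were higher, and 14.2% of those with a mean CPM under 10. The end and the level of a gene were thus not separated here.

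Of 18 genes for factors that make or process histone mRNA, 15 were tested, with a median log2-fold change of 0.022, or 0.010 without VDD2. At an unadjusted p-value under 0.05, 1 was higher and 3 lower in VDD-F1 mice, against 9.55% and 6.29% of all genes. Slbp had 8.45 ± 2.11 CPM in VDD-F1 mice and 7.19 ± 0.518 in VDS-F1 (SD, n = 6), and the log2-fold change was 0.24 (SE 0.16, edgeR adjusted p = 0.485). Npat, the coactivator of histone genes at the start of S phase, had 9.55 ± 0.846 and 8.42 ± 1.24 CPM (SD, n = 6), and the log2-fold change was 0.18 (SE 0.12, edgeR adjusted p = 0.489). Eri1, an exonuclease that trims and degrades histone mRNA ends, had 12.3 ± 1.01 and 9.73 ± 0.916 CPM (SD, n = 6), and the log2-fold change was 0.34 (SE 0.10, edgeR adjusted p = 0.118). Upf1, a helicase of histone mRNA decay, and Sympk, a scaffold of the cleavage complex, had log2-fold changes of -0.21 and -0.20. Of 8 histone chaperones tested, 1 was higher, Chaf1b, at 1.47 ± 0.719 and 0.711 ± 0.275 CPM (SD, n = 6), which reached the minimum count only through the VDD-F1 mice, and the median was 0.083, or 0.051 without VDD2. Of 10 replacement variants tested, which are not tied to DNA synthesis as the genes above are, 3 were higher, with a median of 0.10, or 2 and 0.063 without VDD2. These were Cenpa, the H3 variant of centromeres, with a log2-fold change of 1.21 (SE 0.31, edgeR adjusted p = 0.0969), H1fx with 2.30, which reached the minimum count only through the VDD-F1 mice and fell below it without VDD2, and H2afz with 0.35. H2afx had a log2-fold change of 0.086, which was -0.14 without VDD2.

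Of 26 DNA replication genes tested, 5 were higher at an unadjusted p-value under 0.05 and 0 lower, with a median log2-fold change of 0.26, or 3 and 0.19 without VDD2. Over all genes tested, 9.55% were higher and 6.29% lower, and 14.2% of those with a mean CPM under 10 were higher. Pcna, the sliding clamp of DNA polymerases, had 18.1 ± 1.71 and 15.6 ± 2.45 CPM (SD, n = 6), and the log2-fold change was 0.21 (SE 0.11, edgeR adjusted p = 0.389). Ccna2, the cyclin of S and G2 phase, Uhrf1 and Lig1 had the smallest p-values, with log2-fold changes of 2.11, 1.96 and 0.82, which were 1.17, 1.45 and 0.63 without VDD2. Ccna2 and Uhrf1 reached the minimum count only through the VDD-F1 mice. All 20 mitosis genes tested were higher at an unadjusted p-value under 0.05, with a median of 1.99, or 12 of the 16 still tested and 1.21 without VDD2. However, 15 of the 20 reached the minimum count only through the VDD-F1 mice, so that they had to differ. DESeq2 called 11 of the 20, against 2.03% of all genes. Part of this list was chosen with the study's own results on these samples in view, so it is not independent evidence of its direction. Mki67, the marker of dividing cells, had 43.2 CPM in VDD2, 5.12 to 12 in the other VDD-F1 mice and 2.71 to 5.44 in the VDS-F1 mice. The summed CPM of the 22 mitosis genes was 173 in VDD2, 48.6 in VDD5, 47.0 in VDD4, 37.7 in VDD6, 26.8 in VDD1 and 17.9 in VDD3, and 13.3 to 19.3 in the VDS-F1 mice. VDD2 was the highest mouse for the histone genes of lower level, for the replication genes (211 CPM, against 108 to 154 in the others) and for the mitosis genes. VDD3, with 136 CPM of the lower histone genes, was above all VDS-F1 mice there and within their range for mitosis genes.

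**Figure D5:**
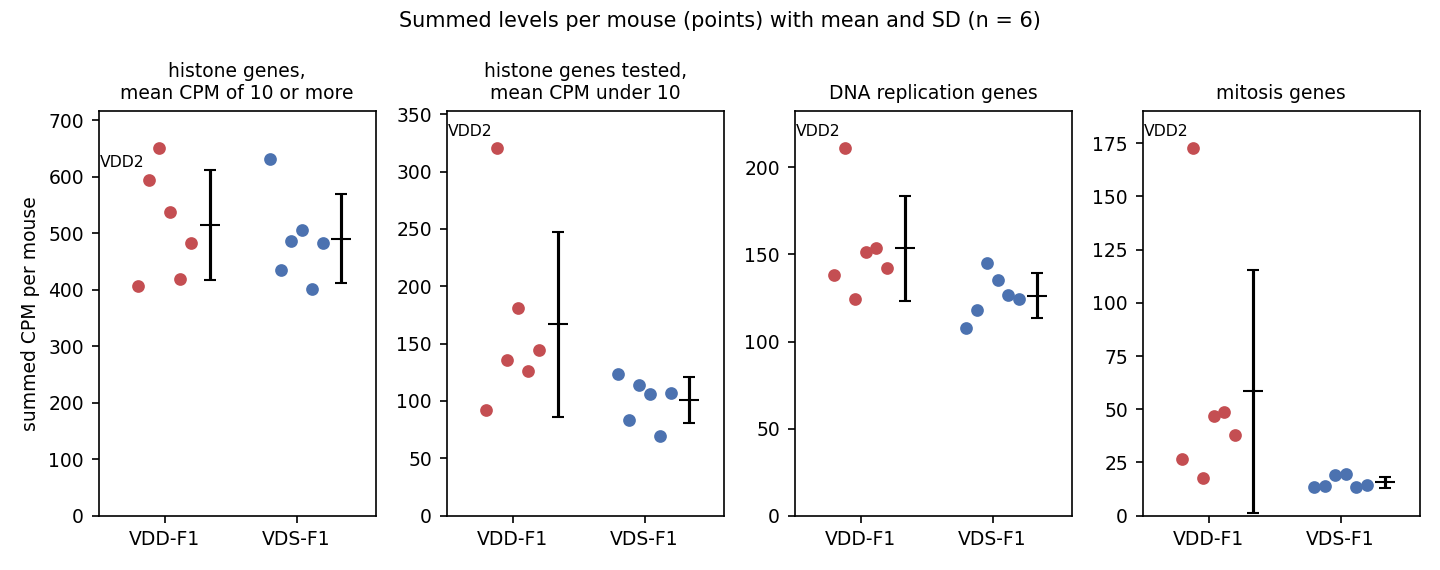
Summed CPM per mouse (points) of the 10 histone genes with a mean CPM of 10 or more, the other 40 histone genes tested, the DNA replication genes and the mitosis genes, with mean and SD (n = 6) beside each group. VDD2 is the highest point in all panels but the first, at 320, 211 and 173 CPM.

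The hepatocyte markers were abundant in every mouse, at a summed 71693 to 99444 CPM. Of 5, 2 were lower and 0 higher at an unadjusted p-value under 0.05, or 1 higher without VDD2. Over all genes tested, 9.55% were higher and 6.29% lower, and 7.24% were higher without VDD2. The summed stellate cell markers were 679 CPM in VDD2, 276 to 451 in the other VDD-F1 mice and 259 to 392 in VDS-F1 mice, and 2 of 5 were higher, or 1 without VDD2. The cholangiocyte markers were 115 CPM in VDD2, 23.9 to 71.7 in the others of its group and 27.6 to 51.0 in VDS-F1 mice, and 3 of 5 were higher, or 0 without VDD2. The dendritic cell markers were 17.6 CPM in VDD2, 1.58 to 8.68 and 0.756 to 2.77, and the 1 of 5 tested, Itgax, was higher. Of 6 Kupffer cell markers, 2 were lower, and of 6 endothelial cell markers 1 was higher (0 without VDD2) and 2 lower, with summed levels of 79.8 to 231 and 215 to 266 CPM in VDD-F1 mice and 122 to 241 and 206 to 291 in VDS-F1 mice. Of the T cell markers 1 of 2 tested was lower, and the B cell marker tested, the 5 erythroid cell markers and the neutrophil markers, none of which was tested, gave 0 in either direction. The lymphocyte and neutrophil lists summed to at most 7.15 CPM in any mouse. No marker was at 0 in every library. Erythroid cell markers, at 1291 CPM, were highest in VDS1. The T cell markers summed to 7.15 CPM in VDD2 and at most 5.07 in the other mice, and the B cell markers to 4.96 and at most 2.88. Markers of stellate cells, cholangiocytes, dendritic cells, T cells and B cells were thus highest in VDD2, as were the histone genes of lower level, and their part in the histone values was not tested.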

How the data were processed

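Per the study's methods, the authors removed ribosomal RNA from liver RNA (KAPA RNA HyperPrep with RiboErase) and aligned the trimmed reads with STAR to mm10 and GENCODE M15. The deposited files hold whole-number counts of fragments per gene in STAR's layout, not normalized, with 1 unstranded column and 1 column per strand. Fragments that map to several places, 6.69% to 8.92% of each library, were not counted. The reverse-strand count was used, since it held 92.7% to 95.8% of the stranded counts. Of 52636 gene identifiers, 52489 matched GENCODE M21 (GRCm38) after the version was removed, and transcript sequences, stem-loops and overlaps come from there. No coordinates of the authors' own were used.

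Counts were normalized by TMM and tested in edgeR 4.0.16 (quasi-likelihood, legacy form) under R 4.3.3, without covariates, over all genes with a mean count of 12 or more, and p-values were adjusted after Benjamini and Hochberg over all of them. The standard error is the log2-fold change divided by the square root of F. DESeq2 1.42.0, named in the study's methods, was an alternative, as were the newer form of edgeR, other size factors, other filters, the unstranded count, the set of mice, the replicate block and each mouse left out. The fits were tested on simulated counts with known changes. Sums and sequences were computed in Python 3.11.15 with pandas 2.3.3 and NumPy 2.4.6, and plots drawn with matplotlib 3.10.9.

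The histone genes, the lists and the tests were chosen with earlier results of these data known. Per-mouse values are given for up to 3 genes per class with the highest CPM per kilobase, up to 3 per class with the smallest p-values under 0.05, and the gene of each cluster with the highest CPM per kilobase. Protein sequences were not analysed here.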

Additional observations from a re-analysis of the deposited data

Results flagged for a closer look

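Of 68 groups of 6 mice checked, over the named histone genes and the class sums, 14 had a highest or lowest mouse whose gap to the next, divided by the range of the group, was above Dixon's critical value for 6 samples. Chance flags about 1 in 20 groups where values are independent and normally distributed, and these genes and sums are not independent. The high mouse was VDD2 in 11 of the 14. In VDD2, Hist1h1c had 123 CPM, Hist1h1a 7.57, Hist1h1b 9.76, Hist1h2ab 9.45, Hist1h2bg 16.2, Hist1h2bb 11.1, Hist1h2be 6.68, Hist1h2bn 13.6, Hist1h2bl 5.58 and Hist1h3c 14.1, and the H2A genes summed to 62.9 CPM. These 10 genes span H1, H2A, H2B and H3. Hist1h4f, an H4 gene that was not among those checked, had 18.1 CPM in VDD2 and at most 8.24 in the other VDD-F1 mice.

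In VDS-F1 mice, Hist1h1c had 133 CPM in VDS1 and Hist1h4n 3.85 CPM in VDS1, and Hist1h2bb had 6.94 CPM in VDS6. Hist1h1c and Hist1h2bb thus had a distant mouse in each group.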

How the results depend on the processing

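Without a replicate block, edgeR called 5 of all genes and 0 histone genes. DESeq2 called 253 and 8, the newer form of edgeR 17 and 0, no filter 70 and 2, the set of mice as a covariate 21 and 0, the 7 mice with a recorded liver weight 536 and 6, and the other 5 mice 0 of all genes. With each mouse left out in turn, between 0 and 260 of all genes and between 0 and 6 histone genes were called, the most without VDD1. With the other 5 mice 5 of 53 histone genes were higher at an unadjusted p-value under 0.05 (2.05% of all genes), and the count of lower ones was 2 with a total count of 12 or no filter, 0 within either set, and 0 to 2 with a mouse left out. The replicate block called 17 of all genes and 0 histone genes. Same-numbered mice did not deviate together (correlations of -0.0762 to 0.103, and 0 of 6 VDD-F1 mice correlated best with their own number). This gave no sign of pairing by number, but a weak pairing or one limited to few genes might not show.

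Of 592 recomputed log2-fold changes of 27 named genes, 555 kept direction and side of the threshold, 23 passed it only under the alternative, and 14 in 6 genes changed sign, none of which passed the threshold with all 12 mice. Hist1h1c was -0.15 in the 5 mice without a recorded weight. In the 7 with one, Hist1h1e was -0.079, Hist1h2ab -0.063, Hist1h3e -0.030 and Hist1h3a -0.075, and with the set as a covariate Hist1h3e was -0.017. With a mouse left out, Hist1h1c lay between -0.074 and 0.48, Hist1h2ab between -0.016 and 0.40, Hist1h3e between -0.090 and 0.14 and Hist1h4c between -0.0069 and 0.19. The cause was not tested. Genes near the minimum count have few counts per library, and a difference within their spread may have gone undetected at this depth.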
